A study of Mus musculus with 6 samples.

Results

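Transcripts of 42 genes of the cell cycle and of DNA replication were followed in mouse liver 6 h after an injection of FGF15 or FGF19. The genes were taken by name, as cyclins, their kinases and inhibitors, replication proteins and mitotic proteins. Every probe set that the platform annotation pairs with exactly 1 of these genes was kept, which gave 76 of the 22690 probe sets on the array and 40 of the 42 genes. Ccnb1 and Cdkn3 had no probe set of their own, and 1 probe set that Tyms shares with its pseudogene was left out. Each of the 40 genes was represented by its probe set of highest mean, and 31 lay above a filter on low signals (a mean signal of 14.03).

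The livers came from male C57Bl/6 mice, wild type in every group, that were kept from food during the 6 h. There were 3 groups of 2 arrays: purified FGF15, recombinant FGF19 and vehicle, each given through the jugular vein. The sources used here give no dose, no make-up of the vehicle and no age of the mice. Whether each array stands for a mouse of its own is not stated either, so p-values measure the spread between these arrays only, which may be technical. Hepatocyte markers were present on all arrays, with a summed signal over 9 genes of 76081 and 82935 with FGF15, 65899 and 85198 with FGF19, and 90798 and 89819 with vehicle.

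FGF19 is the human form of mouse FGF15, and these gut hormones act on hepatocytes through FGFR4 and β-Klotho, and prolonged exposure of mice to FGF19 is known to drive hepatocytes to divide. In the cell cycle, D-type cyclins with CDK4 or CDK6 phosphorylate the retinoblastoma protein and release E2F factors, which switch on the genes of DNA replication. Cyclins E and A with CDK2 carry the cell through S phase, and cyclin B with CDK1 carries it into mitosis. Most hepatocytes of an adult liver are out of the cycle, so transcripts of S phase and mitosis are scarce there, and in whole liver they can come from any cell type. In such bulk RNA, fewer cells of a type and less RNA per cell cannot be told apart.

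Values are deposited signal intensities on a linear scale. Differences are on log2(signal + 32), a scale that understates the change of low signals, and were tested with limma over all 9685 genes past the filter. A gene is said to rise or fall at a Benjamini-Hochberg adjusted p under 0.05, and every adjusted p is from this fit unless another is named.

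With FGF15, 7 of the 31 measured genes fell and 0 rose: Ccnd1, Rrm2, Mcm2, Mcm6, Ccnb2, Cdc20 and Cdkn2c. With FGF19, 4 fell and 0 rose: Ccnb2, Cdc20, Rrm2 and Mcm2. Over all 9685 genes, FGF15 lowered 6.67% and raised 5.91%, while FGF19 lowered 7.27% and raised 6.29%. With arrays centred on their medians these shares were 3.68% and 10.4% with FGF15 and 3.4% and 12.5% with FGF19, and the median of all genes moved to 0.07 with either hormone. The share of the cell cycle genes that fell was 22.6% with FGF15 and 12.9% with FGF19. Both shares count Ccnb2, which passed the filter through its vehicle signal and so had to differ. At an unadjusted p under 0.05, 13 were lower and 0 higher with FGF15, where 15% of all genes were lower and 11.1% higher. At the same threshold 10 were lower and 0 higher with FGF19, where 17.1% of all genes were lower and 11.1% higher. Both comparisons use the same vehicle arrays, so their results are not independent of each other.

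The median log2 difference of the 31 genes was -0.22 with FGF15 and -0.28 with FGF19, beside -0.05 and -0.07 over all genes tested. Both arrays lay below both vehicle arrays for 16 genes with FGF15 and 17 with FGF19, and above them for 2 and 1. Over all genes, arrays stood apart in this way on the lower side for 32.7% with FGF15 and 37.2% with FGF19, and on the higher side for 22.2% and 21.4%. A gene carried past the filter by its vehicle signal alone had to differ, so these figures describe the genes that passed and support nothing further.

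Single arrays bore on the counts. Only 4 genes fell with FGF15 when either vehicle array, or FGF15 replicate 1, was left out. With FGF19 the count of 4 became 0 when vehicle replicate 1 was left out, and 1 when vehicle replicate 2 or either FGF19 array was. Calls over all genes fell as well in these fits: the share lower with FGF15 was 2.76% and 3.18% without vehicle replicates 1 and 2, and 5.06% when FGF15 replicate 1 was left out. The share lower with FGF19 was 2.92% and 3.4% without vehicle replicates 1 and 2, and 4.15% and 4.88% without FGF19 replicates 1 and 2. Ccnd1 and Rrm2 passed with FGF15 under all 19 alternatives run, and Mcm2 under all 18 that could test it. FGF19 replicate 1 stood apart in RNA quality, with a 3′ to 5′ ratio of β-actin of 1.63 against 1.30 to 1.39 on the other arrays. The median signal of the whole array was 55.2 and 51.3 with FGF15 and 50.8 and 52.2 with FGF19, against 61.4 and 59.4 with vehicle, although all arrays were scaled to one trimmed mean. With arrays centred on their medians, 7 genes fell with FGF15, and with FGF19 2 fell and 1 rose.

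**Figure D1:**
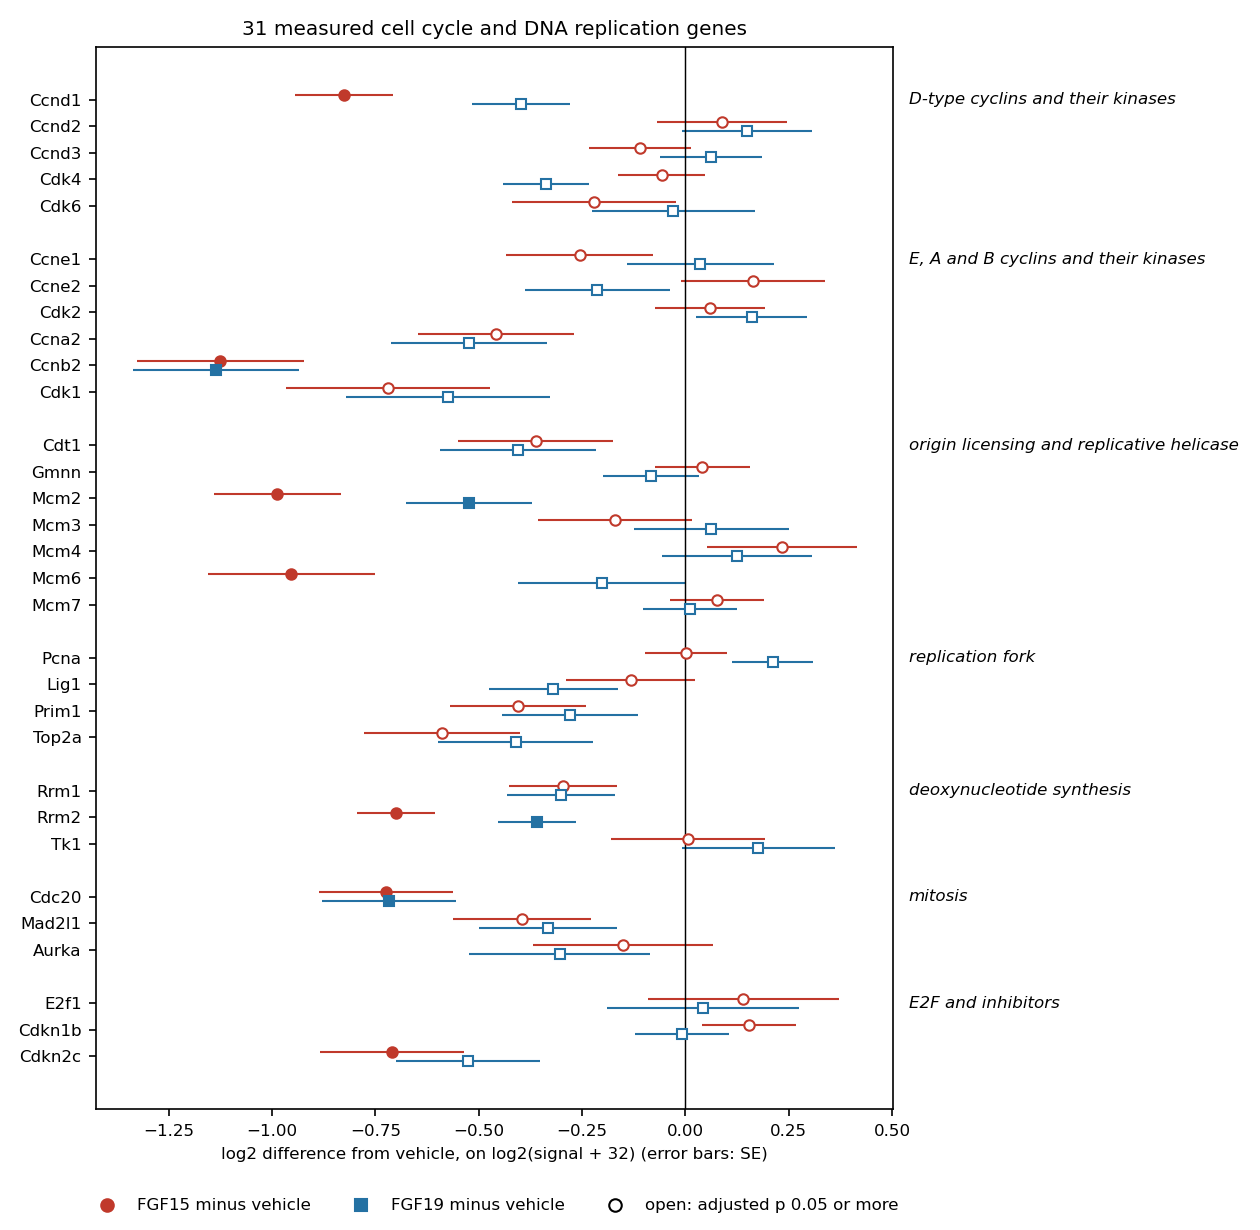
Log2 differences from vehicle (x axis, on log2(signal + 32), error bars SE) of the 31 measured genes, grouped by role, with FGF15 as circles and FGF19 as squares; filled symbols passed the test. The 7 filled circles and 4 filled squares all lie left of 0, and Pcna, Mcm7, Gmnn and Ccnd3 lie close to it with FGF15.

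Among the D-type cyclins and their kinases, 1 of 5 fell with FGF15 and 0 with FGF19. Ccnd1 encodes cyclin D1, the D-type cyclin that growth factors induce when hepatocytes enter the cycle. Its signal (probe set 1448698_at) was 177 and 132 with FGF15 and 224 and 210 with FGF19, against 290 and 303 with vehicle. All FGF arrays lay under both vehicle arrays, and the FGF15 arrays were the lowest. Ccnd1 fell 1.77-fold with FGF15 (log2 difference -0.83 ± 0.12, SE, n = 2 arrays per group, adjusted p = 0.00151). Its difference with FGF19 was -0.40 ± 0.12 and missed the threshold (adjusted p = 0.0533). Whether Ccnd1 passed with FGF19 depended on the setting. It passed with an offset of 64 (0.0468), a filter at the 50th percentile (0.0422) and the mean of its probe sets (0.0318). It also passed with the replicate number as a block (0.0449) and in a fit of only the arrays compared (0.0153). It missed in the fit without a filter (0.0952) and with an offset of 16. With quantile normalization, arrays centred on their medians or cyclic loess it missed as well. The other probe sets of Ccnd1 gave -0.57 and -0.62 with FGF15 and -0.28 and -0.45 with FGF19.

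Ccnd2 and Ccnd3, which encode the other D-type cyclins, did not pass in any comparison. Ccnd3 had a signal of 159 and 185 with FGF15 and 222 and 175 with FGF19, against 197 and 178 with vehicle. These ranges overlap, and the 95% interval of its log2 difference was -0.39 to 0.16 with FGF15 and -0.21 to 0.34 with FGF19. Ccnd2 had 77.4 and 73.5 with FGF15 and 65.9 and 96.4 with FGF19, against 75.1 and 63.4 with vehicle. Its 7 probe sets gave log2 differences of -0.14 to 0.11 with FGF15 and -0.32 to 0.15 with FGF19.

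Cdk4, the kinase partner of the D-type cyclins, had probe sets that disagreed. The one of highest mean (1422441_x_at, a type that can bind related transcripts) read 151 and 142 with FGF15 and 118 and 112 with FGF19, against 160 and 148 with vehicle, a log2 difference with FGF19 of -0.34 ± 0.10 (adjusted p = 0.0616). The other probe sets gave 0.23 and 0.19 with FGF19, the opposite sign. Cdk6, a kinase of the same role, lay near the filter, at 6.37 and 13.8 with FGF15 and 12.9 and 19.1 with FGF19, against 13.97 and 19.96 with vehicle.

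Of 6 measured genes of the E, A and B cyclins and their kinases, 1 fell with each hormone. This was Ccnb2, cyclin B2, a partner of CDK1 in mitosis, which had the largest negative log2 difference among the 31 genes with either hormone. Its signal was 11.8 and 8.08 with FGF15 and 16.2 and 3.88 with FGF19, against 66.4 and 52.9 with vehicle. Every FGF array was far below both vehicle arrays, and the FGF groups overlapped each other. The log2 difference was -1.13 ± 0.20 with FGF15 (adjusted p = 0.00546) and -1.14 ± 0.20 with FGF19 (adjusted p = 0.00486). The FGF means lay under the level of the filter, so the offset of 32 sets the size of these differences. Ccnb2 passed the filter through its vehicle mean, so it could be tested only as a gene that differed. Without vehicle replicate 1 neither call held (adjusted p = 0.057 with FGF15 and 0.0511 with FGF19).

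Cdk1, the mitotic kinase, read 18.2 and 3.85 with FGF15 and 26.2 and 5.84 with FGF19, against 36.6 and 39.1 with vehicle. Ccna2, cyclin A2 of S phase and early mitosis, read 22.1 and 29.3 with FGF15 and 15.8 and 31.4 with FGF19, against 44.3 and 49.98 with vehicle. In both genes all FGF arrays were below the vehicle arrays, but the arrays of an FGF group were wide apart and neither gene passed: log2 differences were -0.72 ± 0.25 and -0.57 ± 0.25 for Cdk1 (adjusted p = 0.0912 with FGF15 and 0.161 with FGF19) and -0.46 and -0.52 for Ccna2. Ccne1, Ccne2 and Cdk2, which act earlier, at the entry into S phase, had log2 differences between -0.26 and 0.16 in these comparisons, with no common sign.

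Of 7 measured genes of origin licensing and the replicative helicase, 2 fell with FGF15 and 1 with FGF19. The helicase is a ring of the MCM2 to MCM7 proteins, loaded onto DNA by CDC6 and CDT1 and held back by geminin. Mcm2 (1434079_s_at) read 31.6 and 25.8 with FGF15 and 53.6 and 49.7 with FGF19, against 98.9 and 78.4 with vehicle, so the 3 groups did not overlap. It fell 1.98-fold with FGF15 (-0.99 ± 0.15, adjusted p = 0.00237) and 1.44-fold with FGF19 (-0.52 ± 0.15, adjusted p = 0.0498). The FGF19 call ended without any single vehicle or FGF19 array (adjusted p = 0.269 without vehicle replicate 1, 0.0725 without vehicle replicate 2, 0.15 without FGF19 replicate 1 and 0.191 without FGF19 replicate 2). It also ended with quantile normalization (0.119), centring on medians (0.12) and cyclic loess (0.133). A second probe set, 1448777_at, gave -0.64 with FGF15 and -0.61 with FGF19, with no separation of the hormones.

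Mcm6 (1416251_at) read 12.1 and 30.95 with FGF15 and 53.4 and 60.1 with FGF19, against 58.2 and 83.4 with vehicle. The FGF15 arrays were below all others, while FGF19 and vehicle overlapped. It fell 1.94-fold with FGF15 (-0.95 ± 0.20, adjusted p = 0.0133), but did not pass when vehicle replicate 2 (0.103) or FGF15 replicate 1 (0.0653) was left out. Its second probe set gave a smaller difference, -0.36.

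The other 5 measured genes of this role did not pass. Mcm7 (1438320_s_at) read 130 and 115 with FGF15 and 120 and 111 with FGF19, against 117 and 112 with vehicle, and the 95% interval of its log2 difference was -0.18 to 0.33 with FGF15 and -0.24 to 0.27 with FGF19. Its other probe sets gave -0.28 to -0.03 with FGF15 and -0.39 to -0.01 with FGF19. Mcm4 had log2 differences of 0.23 ± 0.18 and 0.12 ± 0.18 and Mcm3 of -0.17 and 0.06. A dimmer Mcm3 probe set, 1426652_at, read 4.57 and 1.78 with FGF15 and 16.9 and 11.8 with FGF19, against 17.6 and 18.4 with vehicle, a log2 difference with FGF15 of -0.51 ± 0.12. Gmnn, geminin, stayed within -0.22 to 0.30 (95% interval) with FGF15 and -0.34 to 0.17 with FGF19. Cdt1 read 36.1 and 23.5 with FGF15 and 35.5 and 20.8 with FGF19, against 50.3 and 43.8 with vehicle, so all FGF arrays were the lower ones (-0.36 ± 0.19 and -0.40 ± 0.19, not past the threshold). Its other probe sets gave -0.33 and 0.00 with FGF15 and -0.05 and 0.11 with FGF19. Mcm5 and Cdc6 lay under the filter on every group mean, and no array read above 17.3 for Mcm5 or 3.11 for Cdc6.

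**Figure D2:**
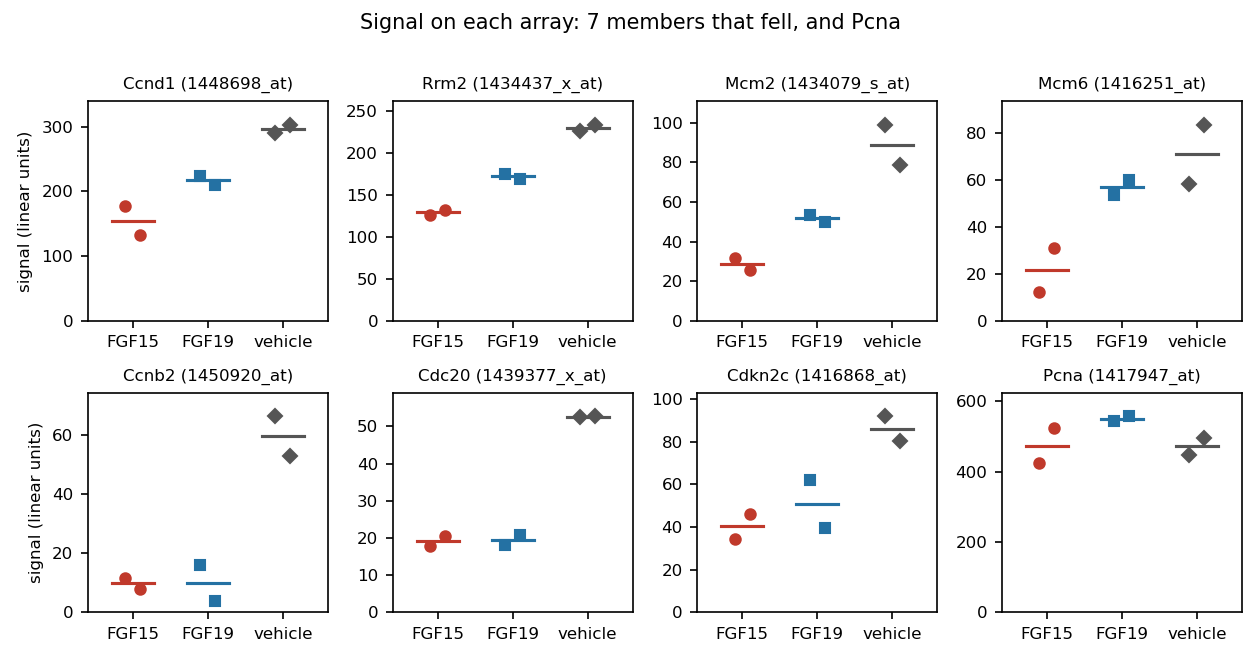
Signal (y axis, linear units, from 0) on each array of the 7 genes that fell and of Pcna, in the order FGF15, FGF19, vehicle; points are arrays and bars are group means. Ccnd1, Rrm2 and Mcm2 show 3 separate levels, lowest with FGF15, whereas Ccnb2 and Cdc20 overlap between the hormones below vehicle and Pcna overlaps between FGF15 and vehicle.

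Promoters are shown for Ccnb2, Mcm2 and Rrm2, taken from RefSeq (build GRCm38.p6) because they were among the 4 members with the smallest p against vehicle. Each runs from 250 bases before to 50 bases after the start of the gene, 5′ to 3′ on the strand of the gene. Capitals mark the letters TTTGAA, known as the CHR element of late cell cycle genes, and CCAAT, on either strand (TTCAAA and ATTGG on the other).
Ccnb2, chr9:70421505-70421804, minus strand: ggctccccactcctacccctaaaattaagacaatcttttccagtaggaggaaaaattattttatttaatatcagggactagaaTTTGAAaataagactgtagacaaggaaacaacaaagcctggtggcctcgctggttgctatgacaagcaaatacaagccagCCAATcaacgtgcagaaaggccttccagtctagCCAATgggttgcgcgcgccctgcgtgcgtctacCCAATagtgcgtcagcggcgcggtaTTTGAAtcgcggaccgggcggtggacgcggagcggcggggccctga
Mcm2, chr6:88898731-88899030, minus strand: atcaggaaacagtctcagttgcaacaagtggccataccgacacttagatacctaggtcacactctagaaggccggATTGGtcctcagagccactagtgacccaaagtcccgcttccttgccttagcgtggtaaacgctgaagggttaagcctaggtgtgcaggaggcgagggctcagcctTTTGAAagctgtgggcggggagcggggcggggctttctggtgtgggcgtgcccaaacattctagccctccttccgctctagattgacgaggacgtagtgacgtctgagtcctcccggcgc
Rrm2, chr12:24708004-24708303, plus strand: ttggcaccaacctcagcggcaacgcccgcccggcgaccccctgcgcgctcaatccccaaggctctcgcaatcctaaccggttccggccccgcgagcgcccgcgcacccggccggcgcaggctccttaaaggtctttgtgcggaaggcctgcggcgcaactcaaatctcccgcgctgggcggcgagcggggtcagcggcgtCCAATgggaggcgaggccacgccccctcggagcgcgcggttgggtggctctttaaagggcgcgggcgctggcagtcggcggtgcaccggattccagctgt

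The Ccnb2 window held 2 CHR and 3 CCAAT matches, that of Mcm2 1 of each, and that of Rrm2 1 CCAAT match. None of the 3 held an E2F word (TTTCCCGC, TTTCGCGC, TTTGCCGC or TTTGGCGC on either strand; a word and its reverse complement that share bases count separately). Of the 35 members with a promoter in the table, taking the first listed, 8 held an E2F word (22.9%), 10 a CHR match (28.6%) and 22 a CCAAT match (62.9%). Over all 32851 promoters of the same length the shares were 2.26%, 17.9% and 37.4%. Over the 7837 tested genes with a promoter listed they were 3.97%, 12.0% and 37.9%. All 10 members with a CHR match also held CCAAT (28.6% of members, against 6.95% of all promoters): Aurka, Bub1b, Ccnb2, Cdc20, Cdk1, Cdkn3, Mcm2, Mki67, Plk1 and Top2a. Matches to E2F words lay in Cdc6, Cdk1, Cdk2, Cdt1, Mcm3, Mcm5, Mcm6 and Mcm7, of which Mcm6 held 3 and fell with FGF15 while Mcm3 and Mcm7, with 2 each, did not pass. A match is a run of letters and not a shown binding site.

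Of 4 genes that act at the replication fork, 0 passed with either hormone. Pcna encodes the sliding clamp of DNA polymerases. Its signal was 425 and 524 with FGF15 and 544 and 557 with FGF19, against 449 and 496 with vehicle. FGF15 and vehicle overlapped, with a 95% interval of the log2 difference of -0.22 to 0.22. Both FGF19 arrays were above the vehicle arrays (0.21 ± 0.10, adjusted p = 0.194), and with arrays centred on their medians this passed as a rise (0.36, adjusted p = 0.0483).

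Top2a, the topoisomerase that untangles replicated chromosomes, read 7.37 and 13.9 with FGF15 and 12.3 and 20.2 with FGF19, against 31.4 and 32.4 with vehicle. All FGF arrays were low, with log2 differences of -0.59 ± 0.19 (adjusted p = 0.0713) and -0.41 ± 0.19 (adjusted p = 0.186) that did not pass. Prim1, of the primase, and Lig1, the ligase that joins Okazaki fragments, also had all FGF arrays under the vehicle arrays without passing, at -0.41 and -0.28 for Prim1 and -0.13 and -0.32 for Lig1.

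In deoxynucleotide synthesis, 1 of 3 measured genes fell with each hormone. Rrm2 encodes the regulated subunit of ribonucleotide reductase, which makes deoxynucleotides for replication. On 1434437_x_at, a probe set that can bind related transcripts, it read 126 and 132 with FGF15 and 175 and 169 with FGF19, against 226 and 233 with vehicle. The groups were far apart for the small spread within them. Rrm2 fell 1.62-fold with FGF15 (-0.70 ± 0.09, adjusted p = 0.000991) and 1.28-fold with FGF19 (-0.36 ± 0.09, adjusted p = 0.0319). The FGF19 call ended without any single vehicle or FGF19 array (adjusted p = 0.11 to 0.139) and with arrays centred on their medians (0.212).

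The probe sets of Rrm2 ordered the hormones differently. On 1416120_at the log2 difference was -0.14 with FGF15 and -0.52 with FGF19, and on 1448226_at -0.53 and -0.45. Rrm1, the other subunit, read 62.5 and 68.0 with FGF15 and 64.4 and 65.4 with FGF19, against 93.3 and 81.8 with vehicle. All its FGF arrays were lower than vehicle, at -0.30 ± 0.13 with both hormones, and it did not pass (adjusted p = 0.187 with FGF15 and 0.166 with FGF19). Its second probe set, 1415878_at, overlapped between all groups (0.03 and 0.02). Tk1, thymidine kinase of the salvage pathway, overlapped between all groups (35.3 and 51.6 with FGF15, 57.0 and 48.1 with FGF19, 53.5 and 33.3 with vehicle). Tyms, thymidylate synthase, lay under the filter.

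**Figure D3:**
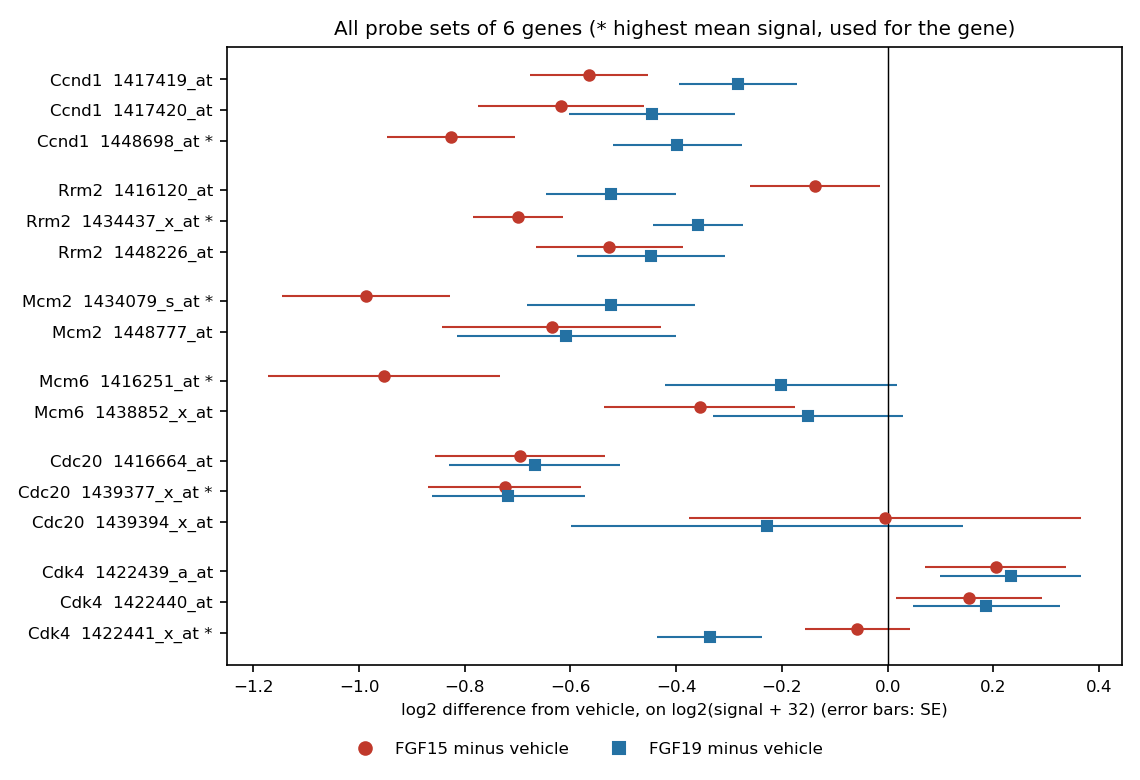
Log2 differences from vehicle (x axis, error bars SE) of every probe set of 6 genes, FGF15 as circles and FGF19 as squares; an asterisk marks the probe set used for the gene. All probe sets of Ccnd1 and Mcm2 lie left of 0, those of Rrm2 place the hormones in different orders, and those of Cdk4 lie on both sides of 0.

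Of 9 mitotic genes, 3 passed the filter, and 1 of these fell with each hormone. This was Cdc20, the activator of the anaphase-promoting complex. Its signal (1439377_x_at) was 17.96 and 20.6 with FGF15 and 18.1 and 20.9 with FGF19, against 52.7 and 52.7 with vehicle. The FGF groups overlapped, and both were below vehicle, with log2 differences of -0.72 ± 0.16 with FGF15 (adjusted p = 0.0171) and -0.72 ± 0.16 with FGF19 (adjusted p = 0.0165). A second probe set gave -0.70 and -0.67, and another, with arrays of each group wide apart, 0.00 and -0.23. On the mean of all probe sets of Cdc20 both calls were lost (-0.47, adjusted p = 0.0855 with FGF15, and -0.54, adjusted p = 0.0536 with FGF19). Both calls ended without any single array of the groups compared (adjusted p from 0.0523 to 0.0893 with FGF15 and from 0.0697 to 0.102 with FGF19).

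Mad2l1, of the spindle checkpoint, read 49.3 and 37.6 with FGF15 and 44.4 and 48.8 with FGF19, against 78.8 and 56.2 with vehicle, and did not pass (-0.39 ± 0.17 and -0.33 ± 0.17). Aurka, aurora kinase A, overlapped between groups.

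The other 6 mitotic genes, Aurkb, Birc5, Bub1, Bub1b, Mki67 and Plk1, lay under the filter. Birc5, survivin, of the chromosomal passenger complex, read 7.29 and 4.26 with FGF15 and 6.07 and 2.66 with FGF19, against 39.8 and 23.7 with vehicle. Mki67, the Ki-67 antigen used to mark cycling cells, read 2.01 and 6.62 with FGF15 and 3.03 and 9.41 with FGF19, against 22.3 and 21.3 with vehicle. Aurkb, aurora kinase B, read 3.62 and 6.63 with FGF15 and 1.78 and 2.22 with FGF19, against 15.6 and 14.3 with vehicle. On these probe sets of the 3 genes every FGF array was under both vehicle arrays, at levels where the array resolves little. Another Aurkb probe set, 1424128_x_at, at signals of 1.61 to 17.3, gave the opposite sign, 0.19 with FGF15 and 0.10 with FGF19. In a fit without the filter, with p-values adjusted over 12393 genes, of which 3.9% were lower with FGF15 and 4.33% with FGF19, Birc5 was lower with both hormones (-0.74 ± 0.16, adjusted p = 0.0314, and -0.80 ± 0.16, adjusted p = 0.0219), Mki67 with FGF15 (-0.57 ± 0.14, adjusted p = 0.0489, against 0.0721 with FGF19) and Aurkb with FGF19 (-0.47 ± 0.11, adjusted p = 0.0429, against 0.117 with FGF15). Bub1, Bub1b and Plk1 did not pass, and the arrays of a group differed for Plk1 and Bub1 by more than the groups did.

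Of 3 measured genes among E2F1 and the kinase inhibitors, 1 fell with FGF15. Cdkn2c encodes p18, an inhibitor of CDK4 and CDK6, and is thus a brake on the cycle, unlike the other genes that fell. It read 34.5 and 46.1 with FGF15 and 62.0 and 39.4 with FGF19, against 91.9 and 80.2 with vehicle. All FGF arrays were lower. The log2 difference was -0.71 ± 0.17 with FGF15 (adjusted p = 0.0253) and -0.53 ± 0.17 with FGF19 (adjusted p = 0.0761). The FGF15 call was lost on leaving out vehicle replicate 1 (0.148) or 2 (0.0752), or FGF15 replicate 1 (0.111). Cdkn1b, which encodes the inhibitor p27, read 127 and 138 with FGF15 and 120 and 111 with FGF19, against 109 and 123 with vehicle, and did not pass (0.15 ± 0.11 and -0.01 ± 0.11). E2f1 read 42.7 and 26.3 with FGF15 and 29.7 and 29.5 with FGF19, against 15.7 and 43.1 with vehicle, where the vehicle arrays alone spanned the others.

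FGF19 was then set directly against FGF15. Of the 31 genes, 0 passed in this limma contrast, while 2.41% of all genes were higher and 1.89% lower with FGF19. At an unadjusted p under 0.05, 4 were higher with FGF19 (Mcm6, Rrm2, Ccnd1 and Mcm2) and 1 lower (Cdk4), where 7.61% of all genes were higher and 9.03% lower. Their log2 differences, FGF19 minus FGF15, were 0.75 ± 0.20 for Mcm6 (adjusted p = 0.0735), 0.34 ± 0.09 for Rrm2 (0.0776), 0.43 ± 0.12 for Ccnd1 (0.0794) and 0.46 ± 0.15 for Mcm2 (0.144). A stronger fall with FGF15 than with FGF19 was therefore not shown for any of them in this fit. With arrays centred on their medians Ccnd1 passed (0.46, adjusted p = 0.045), as it did without FGF15 replicate 1 (0.60, adjusted p = 0.0204), and Mcm6 passed without FGF15 replicate 2 (1.01, adjusted p = 0.0371). For Ccnb2 and Cdc20 the differences were -0.01 (95% interval -0.46 to 0.44) and 0.01 (-0.36 to 0.37).

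The arrays also differed in the markers of other cells. Summed over the 40 cell cycle and replication genes, the signal was 74.9% and 77.9% of the vehicle mean with FGF15, 85.8% and 83.0% with FGF19 and 102% and 98.4% with vehicle. Summed over 13 markers of Kupffer cells, the resident macrophages of the liver, it was 4037 and 4103 with FGF15 and 3969 and 3900 with FGF19, against 7181 and 7127 with vehicle. Of these 13 markers 11 fell with each hormone, and no signal was 0 (the defining Clec4f read 366 and 375 with FGF15 and 326 and 305 with FGF19, against 683 and 639 with vehicle). Both FGF19 arrays lay below both vehicle arrays for 12 of the 13 and above them for Marco (101 and 88.8, against 64.9 and 77.0). Over 7 neutrophil markers the sum was 375 and 328 with FGF15 and 503 and 519 with FGF19, against 649 and 632 with vehicle, and of 6 measured 3 fell with FGF15 and 1 with FGF19. With each hormone, both arrays lay below both vehicle arrays for 3 of the 6 and above them for 1. The marker above was Elane with FGF15 and S100a9 with FGF19. Over 10 markers of T, NK and B cells the sum was 282 and 201 with FGF15 and 244 and 268 with FGF19, against 321 and 260 with vehicle, and 0 of 9 measured passed in limma or at an unadjusted p under 0.05. Of 11 markers of stellate cells and fibroblasts, 4 fell with FGF15, and 3 fell and 1 rose with FGF19. Their sum was 83.6% and 85.7% of the vehicle mean with FGF15 and 90.2% and 92.4% with FGF19. With each hormone, both arrays lay below both vehicle arrays for 6 of the 11 and above them for 3. The collagen gene Col3a1 read 113 and 119 with FGF15 and 158 and 169 with FGF19, against 249 and 291 with vehicle. Ecm1 went the other way, at 567 and 558 with FGF15 and 676 and 596 with FGF19, against 530 and 506 with vehicle. The part of these cells in the falls of cell cycle genes was not tested.

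**Figure D4:**
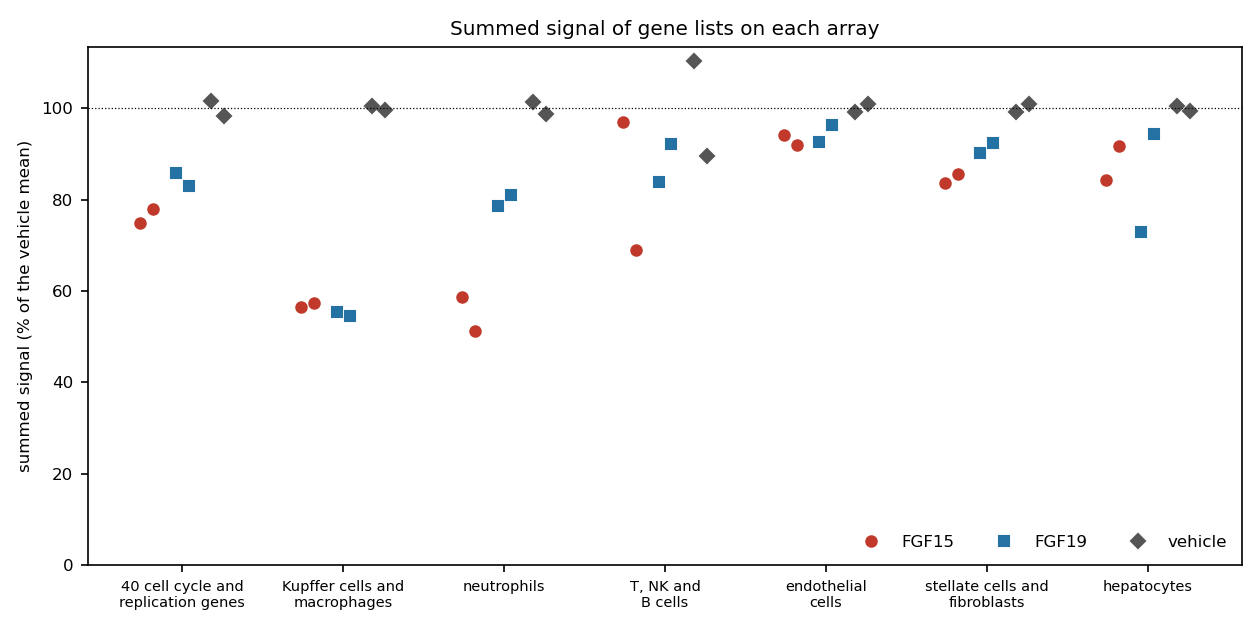
Summed signal (y axis, percent of the vehicle mean, from 0) of the 40 cell cycle and replication genes and of marker lists of 6 cell types on each array, with FGF15 as circles, FGF19 as squares and vehicle as diamonds. The Kupffer cell sum is at 54.5% to 57.3% on the 4 FGF arrays, the cell cycle sum at 74.9% to 85.8%, and the endothelial sum at 91.9% to 96.3%. The sums of hepatocytes (73.0% to 94.3%) and of stellate cells and fibroblasts (83.6% to 92.4%) overlap the cell cycle range.

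In the middle range of the 31 genes, a mean signal of 29.6 to 95.6, 2599 genes of any function were tested. Of these 5.12% fell and 0.77% rose with FGF15, with a median log2 difference of -0.12, and 5.23% fell and 0.923% rose with FGF19, with a median of -0.15. Of the 15 cell cycle genes in that range, 3 fell with FGF15 and 1 with FGF19.

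Other genes of the cycle were read from a list of 114, of which 103 had a probe set of their own and 88 passed the filter. With FGF15 4 fell and 2 rose, and with FGF19 9 fell and 4 rose, shares of 4.55% and 2.27% with FGF15 and of 10.2% and 4.55% with FGF19. The same shares of all genes were 6.67% and 5.91%, and 7.27% and 6.29%. Their median log2 difference was -0.12 with FGF15 and -0.10 with FGF19.

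The gene of this list with the smallest p in both comparisons was Cks1b, whose product binds cyclin-dependent kinases and helps the ubiquitin ligase SKP2 recognise p27. It was higher, not lower: 571 and 495 with FGF15 and 417 and 397 with FGF19, against 184 and 190 with vehicle. The groups did not overlap. Cks1b rose 2.58-fold with FGF15 (1.36 ± 0.09, adjusted p = 8.8e-06) and 2.01-fold with FGF19 (1.00 ± 0.09, adjusted p = 5.8e-05), and a second probe set gave 1.01 and 0.76. Its paralogue Cks2 read 342 and 356 with FGF15 and 223 and 249 with FGF19, against 355 and 338 with vehicle. It fell with FGF19 (-0.50 ± 0.08, adjusted p = 0.00372, against 0.01 ± 0.08 with FGF15), and was lower with FGF19 than with FGF15 in the direct test (-0.51 ± 0.08, adjusted p = 0.00675).

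Cdkn1a encodes p21, an inhibitor of cyclin-dependent kinases. Its signal (1424638_at) was 84.6 and 77.9 with FGF15 and 383 and 403 with FGF19, against 202 and 217 with vehicle, so the hormones lay on opposite sides of vehicle. It fell with FGF15 (-1.09 ± 0.09, adjusted p = 6.09e-05) and rose with FGF19 (0.82 ± 0.09, adjusted p = 0.000379). FGF19 minus FGF15 was 1.91 ± 0.09 (adjusted p = 3.46e-06). A second probe set, 1421679_a_at, gave -1.35 with FGF15 and 0.18 with FGF19, so the rise with FGF19 was read on 1 of its 2 probe sets.

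Stmn1, stathmin, which destabilises microtubules and is abundant in dividing cells, read 107 and 94.6 with FGF15 and 123 and 107 with FGF19, against 260 and 217 with vehicle. It fell with both hormones (-1.03 ± 0.12, adjusted p = 0.000468, and -0.88 ± 0.12, adjusted p = 0.00116) on a probe set that can bind related transcripts, and another gave -0.52 and -0.56. Cdca3, which helps to trigger mitotic entry, read 27.8 and 15.5 with FGF15 and 27.1 and 17.4 with FGF19, against 64.2 and 76.4 with vehicle, and fell with both (-0.94 ± 0.19 and -0.92 ± 0.19, adjusted p = 0.00904 and 0.00937). Its other probe sets gave 0.24 and -0.36 with FGF15 and 0.22 and -0.49 with FGF19. On the mean of all probe sets of Cdca3 both calls were lost (-0.36, adjusted p = 0.233 with FGF15, and -0.39, adjusted p = 0.169 with FGF19). The Cdca3 calls were lost without vehicle replicate 2 (0.0717 with FGF15 and 0.0716 with FGF19), FGF15 replicate 2 (0.059) or FGF19 replicate 2 (0.0757).

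Mcm10, a replication factor that loads DNA polymerase, read 382 and 435 with FGF15 and 332 and 311 with FGF19, against 525 and 515 with vehicle. It fell with FGF15 (-0.33 ± 0.08, adjusted p = 0.0303) and with FGF19 (-0.64 ± 0.08, adjusted p = 0.000801), but another probe set, at signals of 3.88 to 27.9, gave 0.37 and 0.00. The FGF15 call of Mcm10 was lost on leaving out vehicle replicate 1 (0.156) or 2 (0.117), or FGF15 replicate 1 (0.144), and with arrays centred on their medians (0.191). On the mean of its probe sets the FGF19 call of Mcm10 was lost too (-0.32, adjusted p = 0.194). Pttg1, securin, rose on an _s_at probe set (768 and 784 with FGF15 and 919 and 842 with FGF19, against 656 and 642 with vehicle), by 0.25 ± 0.07 with FGF15 (adjusted p = 0.0458) and 0.42 ± 0.07 with FGF19 (adjusted p = 0.00321). Its other probe sets gave -0.01 and 0.04 with FGF15 and -0.15 and 0.29 with FGF19, and the FGF15 call was lost without any single vehicle or FGF15 array (0.105 to 0.195). It was lost in 10 of 19 alternatives, among them quantile normalization (0.0687) and cyclic loess (0.081). On the mean of its probe sets the FGF19 call of Pttg1 was lost (0.19, adjusted p = 0.13).

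**Figure D5:**
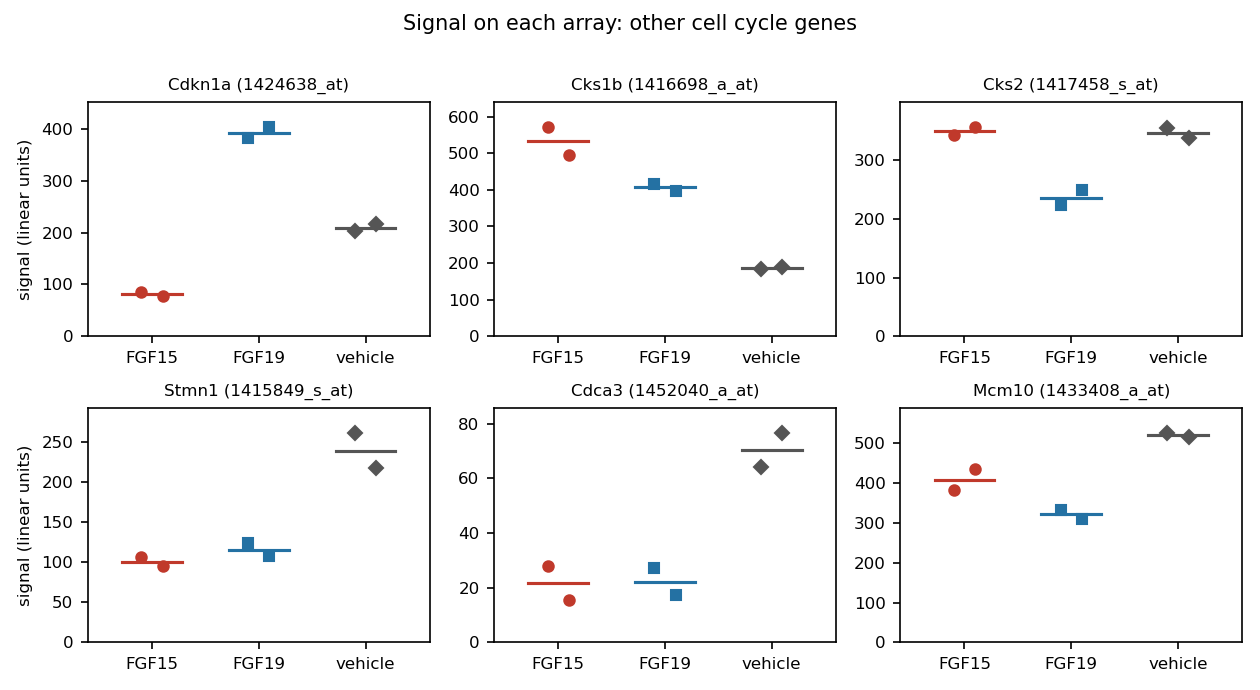
Signal (y axis, linear units, from 0) on each array of 6 cell cycle genes outside the 42, in the order FGF15, FGF19, vehicle; points are arrays and bars are group means. Cdkn1a is below vehicle with FGF15 and above it with FGF19, Cks1b is above vehicle with both, and Cks2 is below vehicle with FGF19 only.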

How the data were processed

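The deposited values are signal intensities of the Mouse Genome 430A 2.0 array, 1 per probe set and array; per the values themselves, the authors scaled every array to a mean signal of about 200 (200.1 after trimming 2% at each end). The sources used here name no software and no detection call. Probe sets with 1 gene (20380 of 22690) were named through the platform annotation and RefSeq (20351 by Entrez identifier). Signals became log2(signal + 32), and the 25th percentile of mean log2 over the probe sets other than controls was the filter, which left 9685 of 12393 genes. limma 3.58.1 in R 4.3.3 (lmFit, eBayes with an intensity trend) was fitted to all 6 arrays with group as its term, with 3 residual and 6.83 prior degrees of freedom, and Benjamini-Hochberg adjustment over all genes of a contrast; other probe sets were read from a fit of all 20380. The number of arrays limits the precision. Over all genes tested, same-numbered arrays did not deviate together (r = -0.02 to 0.08), so numbers were not used as pairs. Whether they did so among the cell cycle genes alone was not tested. The steps were tested on simulated data for FGF15 against vehicle. Of 100 log2 changes of 0.5 in size 19 were recovered, and of 100 of size 1, 63, with 1 false call. A gene that did not pass may thus still have changed. Promoters are RefSeq's, and figures were drawn with matplotlib 3.10.9.

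The genes, lists and tests were chosen with earlier results of these data known. Array values are given for genes called in any contrast and for Ccnd1, Ccnd2, Ccnd3, Cdk4, Pcna, Mcm2, Cdkn1b and E2f1 by rule, with up to 6 called genes of the wider list per comparison with vehicle and Cdkn1a. Values of uncalled members such as Cdk1, Ccna2, Top2a, Birc5, Mki67 and Aurkb were printed after they were seen.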

Additional observations from a re-analysis of the deposited data

Results flagged for a closer look

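The responses to the hormones differed for 2 genes, both outside the 42, in the direct test of FGF19 against FGF15 (limma, n = 2 arrays per group). Cdkn1a was higher with FGF19 by 1.91 on the log2 scale (adjusted p = 3.46e-06, higher on 2 of 2 FGF19 arrays than on both FGF15 arrays), and this held under all 19 alternatives run. Of these, an adjusted p under 0.10 could not undo a call, and leaving out a vehicle array left both compared groups whole. Cks2 was lower, with a log2 difference of -0.51 (adjusted p = 0.00675, lower on 2 of 2 FGF19 arrays), and this ended without FGF19 replicate 1 (adjusted p = 0.0694) and without the intensity trend (0.0666). Groups of 2 arrays are too small to look for single outlying arrays.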

How the results depend on the processing

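The medians against vehicle stayed negative under every alternative run. With FGF15 the median log2 difference was -0.30 with an offset of 16, -0.10 with arrays centred on their medians, -0.057 with a filter at the 50th percentile and -0.14 with the mean of all probe sets. With FGF19 it was -0.35 and -0.20 with offsets of 16 and 64, -0.12 with quantile normalization, -0.13 with centring, -0.13 with cyclic loess, -0.0077 with the stricter filter and -0.14 with the mean of probe sets. With the stricter filter the median of all genes was -0.016 with FGF15 and -0.034 with FGF19, so the FGF19 median of the members was not below it. Under that filter, which keeps fewer genes, 3 of 13 members fell with FGF15 and 2 with FGF19 (9.58% and 10.8% of all genes). With FGF19, 2 fell with quantile normalization (6.06% of all genes), with centring (3.4%) and with cyclic loess (6.38%), and 8 at an adjusted p under 0.10 (11.4%); 1 rose with centring (12.5%). FGF19 minus FGF15 gave 1 higher member with centring (2.6% of all genes), 1 with a replicate block (Mcm6, adjusted p = 0.0336; 2.5%) and 3 at an adjusted p under 0.10 (3.6%). The replicate block, whose numbers only name the arrays, left 7 falls with FGF15 (6.87% of all genes) and 5 with FGF19 (7.8%). Mcm10 turned to 0.019 with FGF15 on the mean of its probe sets. Leaving out single arrays gave 4 to 7 falls and medians of -0.36 to -0.19 with FGF15, 0 to 5 falls with FGF19, and 0 to 1 members higher with FGF19 than with FGF15. Causes were not tested. Signals near or under 14.03 limit what can be read of Birc5, Mki67, Aurkb, Plk1, Bub1, Bub1b, Cdc6, Mcm5 and Tyms, and of Ccnb2 on the FGF arrays.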
